A study of Mus musculus with 14 samples.

Results

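The Egr and Nr4a genes are 2 families of immediate early transcription factors, and their 7 mouse members, Egr1, Egr2, Egr3, Egr4, Nr4a1, Nr4a2 and Nr4a3, were identified by gene name and not by their values. All 7 were listed among the 26570 genes of the basal count table and among the 25933 genes of the learning count table, out of 27591 genes listed in either. Each of the 7 also passed the filter on low counts in both experiments. Poly-A RNA of the dorsal hippocampus of male mice of the strain C57BL6 (C57BL6/J background by the methods) aged 8 months was sequenced in 14 libraries. THY-Tau22 mice are heterozygous for mutated human Tau, which the Thy1.2 promoter drives in neurons, and wild-type (WT) mice carry no transgene. The basal experiment compared resting home-cage animals, 3 WT basal and 2 THY-Tau22 basal libraries, whose labels name no injection. In the learning experiment every animal was injected. The WT VEH_HC group (3 libraries) received saline and stayed in the home cage. The WT VEH group (2 libraries) received saline and was trained in the Morris water maze on consecutive days, then killed an hour after the last trial. The TAU VEH group (2 libraries) consisted of THY-Tau22 mice trained in the same way and injected with CSP, a carbon nanosphere carrier. The TAU MOL group (2 libraries) consisted of trained THY-Tau22 mice injected with CSP-TTK21, the same carrier coupled to an activator of the acetyltransferases CBP and p300. Genotype and carrier cannot be told apart between TAU VEH and WT VEH, since the WT animals received saline. No THY-Tau22 animal of the learning experiment stayed in the home cage. Each p-value measures the spread between these few libraries, and further libraries of the learning experiment, from animals of a single litter, had been left out by the authors after sequencing.

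Egr proteins are zinc finger factors that bind GC-rich sites, and Nr4a proteins are orphan nuclear receptors that can act without a ligand. Calcium entry in active neurons turns both families on within minutes through SRF with its Elk cofactors, CREB and MEF2, without new protein synthesis. In the hippocampus Egr1 is needed for late long-term potentiation and for the consolidation of memory, and Nr4a factors are linked to the gene expression that follows learning and to the effects of histone deacetylase inhibitors on memory.

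The libraries held 28639121 to 37681155 counted reads in the basal experiment and 24693713 to 52180305 in the learning experiment, the lowest being TAU VEH replicate 2. Values are CPM, the reads of a gene scaled to the library total with TMM factors. A gene was called changed where the edgeR quasi-likelihood test gave a Benjamini-Hochberg adjusted p below 0.05 and the log2 fold change exceeded 0.2 in size. The 5 markers of hippocampal neurons were detected in every group, in keeping with the tissue label. Markers of the choroid plexus, a tissue that lines the ventricle beside the hippocampus, varied with the groups and none was at 0. The summed CPM of its 10 markers was 264 to 429 in WT basal, 392 to 1292 in THY-Tau22 basal, 74.9 to 229 in WT VEH_HC, 1559 to 2400 in WT VEH, 230 to 278 in TAU VEH and 700 to 763 in TAU MOL. The relation of a library's expression to exon GC content varied as well. Measured as Spearman's rho over genes, with each gene expressed relative to its mean in the experiment, it lay between 0.0848 and 0.455 in the 5 WT libraries of the learning experiment and between -0.617 and -0.396 in the 4 THY-Tau22 libraries. In the basal experiment it was 0.0670 to 0.323 in WT and -0.600 and 0.481 in the THY-Tau22 libraries.

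The promoters of 5 of the 7 genes are shown, those with an entry in the RefSeq table used. Of these Egr2, Egr4, Nr4a1 and Nr4a2 belong to the genes called between trained and home-cage WT mice, and Nr4a3 does not. Egr1, which was called too, and Egr3 were not matched. Each sequence is the 250 bases before a RefSeq transcription start in GRCm38.p6, read 5′ to 3′ on the gene's strand. They lie at chr10:67537619-67537868 (plus strand) for Egr2, chr6:85513590-85513839 (minus) for Egr4, chr15:101266596-101266845 (plus) for Nr4a1, chr2:57124004-57124253 (minus) for Nr4a2 and chr4:48045055-48045304 (plus) for Nr4a3. Capitals mark the CRE core (TGACG, or CGTCA on the other strand), part of the site that CREB binds, the CArG box, which SRF binds, and the Egr site GCGNGGGCG on either strand.
Egr2: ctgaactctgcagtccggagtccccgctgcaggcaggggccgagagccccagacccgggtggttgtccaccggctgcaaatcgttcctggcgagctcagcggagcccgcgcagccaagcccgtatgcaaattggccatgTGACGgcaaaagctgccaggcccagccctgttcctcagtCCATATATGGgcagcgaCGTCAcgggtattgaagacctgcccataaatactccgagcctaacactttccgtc
Egr4: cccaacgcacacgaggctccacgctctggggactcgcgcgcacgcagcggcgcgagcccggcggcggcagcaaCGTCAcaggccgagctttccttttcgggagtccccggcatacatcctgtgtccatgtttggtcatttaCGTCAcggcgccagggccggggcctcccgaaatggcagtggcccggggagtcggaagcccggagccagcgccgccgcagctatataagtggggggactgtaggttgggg
Nr4a1: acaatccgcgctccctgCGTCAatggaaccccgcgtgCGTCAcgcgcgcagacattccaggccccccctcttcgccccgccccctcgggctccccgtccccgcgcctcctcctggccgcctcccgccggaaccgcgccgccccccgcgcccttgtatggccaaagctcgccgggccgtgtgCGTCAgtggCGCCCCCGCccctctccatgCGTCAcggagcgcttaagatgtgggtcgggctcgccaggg
Nr4a2: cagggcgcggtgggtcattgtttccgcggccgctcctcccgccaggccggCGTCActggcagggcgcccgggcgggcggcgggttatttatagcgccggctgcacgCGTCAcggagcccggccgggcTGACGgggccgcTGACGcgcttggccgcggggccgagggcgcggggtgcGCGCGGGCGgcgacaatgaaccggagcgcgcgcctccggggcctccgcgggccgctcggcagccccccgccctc
Nr4a3: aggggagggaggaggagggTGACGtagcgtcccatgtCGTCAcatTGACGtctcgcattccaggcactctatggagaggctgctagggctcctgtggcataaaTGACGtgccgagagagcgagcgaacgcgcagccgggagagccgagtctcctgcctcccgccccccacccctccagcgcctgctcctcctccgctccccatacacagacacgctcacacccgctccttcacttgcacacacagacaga

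The Egr2 window, the third of 5 starts listed for this gene, held a CArG box at positions -72 to -63 from the start and CRE cores at -111 to -107 and -55 to -51. It is printed as the first of 3 overlapping windows, at starts 3, 4 and 5, that hold the same matches. The window of the second start held another CArG box and no CRE core, and that of the first start held none of the motifs searched. The Egr4 window held 2 CRE cores, at -177 to -173 and -109 to -105. Nr4a1, Nr4a2 and Nr4a3 held 4 CRE cores each, and the Nr4a1 and Nr4a2 windows also held an Egr site, at -60 to -52 and -74 to -66. Of 32851 windows of the same 250 bases across 27025 genes, 17.8% held at least 1 CRE core, 3.9% at least 2 and 0.137% at least 4. A CArG box was in 1.47% of the windows and an Egr site in 4.7%. None of the 5 windows shown held the full CRE TGACGTCA (1.55% of all windows), which contains both forms of the CRE core, or the Nr4a site AAAGGTCA (1.34%). These matches describe the letters only, and Nr4a3, with 4 CRE cores, did not pass the test between trained and home-cage mice.

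The genes differ widely in level. Per kilobase of exon, Egr1 was the highest of the 7 in every group by its mean, at 47.4 ± 5.07 CPM per kb (SD, n = 3) in WT VEH_HC and 110 ± 25.8 (n = 2) in WT VEH. Egr2, known best for the myelination program of Schwann cells, was the lowest in every group, at 0.225 ± 0.00756 CPM per kb in WT VEH_HC and 2.41 ± 0.570 in WT VEH. In the home-cage WT VEH_HC group the order below Egr1 ran Egr3 (38.4), Nr4a1 (23.0), Nr4a3 (21.7), Egr4 (15.4), Nr4a2 (11.4) and Egr2. In the trained WT VEH group Nr4a1 (52.3) stood above Egr3 (35.5), and Egr4 (31.1) above Nr4a3 (22.6). These orders were not tested. In the annotation of mm9, the build of the files, Egr1 (ENSMUSG00000038418) lies on chromosome 18 at 35020861 to 35024638 on the plus strand. An exon of Gm17507, annotated on the opposite strand, overlaps it, and the library kit does not keep strand, so reads of the pair cannot be told apart. No annotated gene overlaps the other 6. Egr2 (ENSMUSG00000037868) lies on chromosome 10 at 66998223 to 67004936, Egr3 (ENSMUSG00000033730) on chromosome 14 at 70477252 to 70479964, and Egr4 (ENSMUSG00000071341) on chromosome 6 at 85461125 to 85463583. Nr4a1 (ENSMUSG00000023034) lies on chromosome 15 at 101097277 to 101105223, Nr4a2 (ENSMUSG00000026826) on chromosome 2 at 56959241 to 56976414, and Nr4a3 (ENSMUSG00000028341) on chromosome 4 at 48058025 to 48099319.

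**Figure D1:**
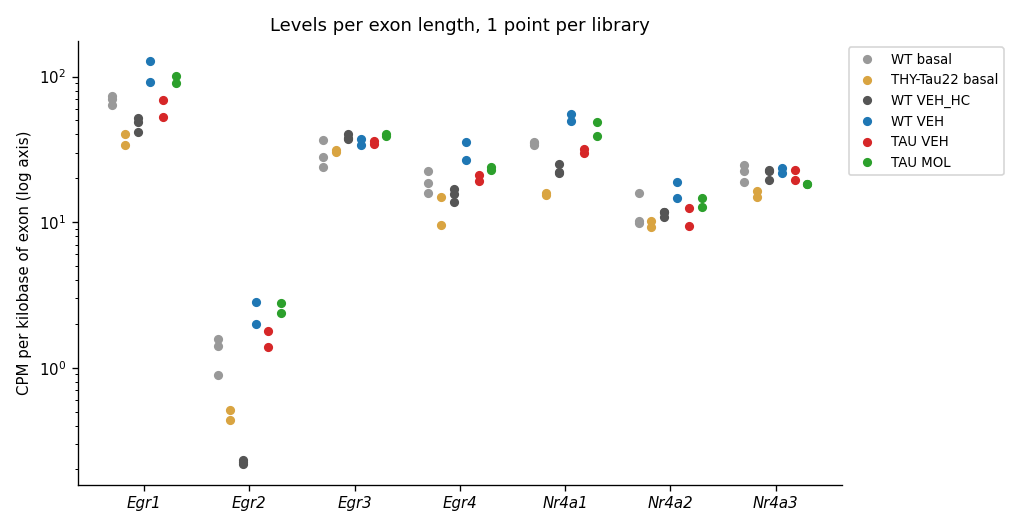
CPM per kilobase of exon on a log axis for the 7 genes, 1 point per library in the colour of its group. Egr1 lies at the top, between 47.4 and 110 by the means of the 4 learning groups, and Egr2 at the bottom, between 0.225 and 2.59.

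Training in the water maze was first compared within WT animals that had all received saline. In WT VEH against WT VEH_HC, 5 of the 7 genes were called higher, 3 of the 4 Egr genes and 2 of the 3 Nr4a genes, and none lower. Of all 16820 genes tested, 5.35% were called higher and 8.4% in either direction. The 7 genes had a median log2 fold change of 1.01, against -0.0028 for all genes.

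Egr2 changed most. Its 3 WT VEH_HC libraries held 0.788, 0.765 and 0.737 CPM, from 31 to 38 reads each, and its 2 WT VEH libraries held 9.57 and 6.83 CPM, from 396 and 258 reads. The trained libraries lay far above every home-cage library, with a fold change of 10.7 (log2 3.42, SE 0.19, adjusted p = 1.2e-05), the 16th highest of the 16820 genes. Its level in home-cage mice rests on few reads, and the 95% interval of the log2 fold change ran from 3.01 to 3.84.

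Egr1, the member tied most closely to memory consolidation, held 150, 130 and 161 CPM in the WT VEH_HC libraries and 398 and 285 CPM in the WT VEH libraries. The groups did not overlap, and Egr1 rose 2.32-fold (log2 1.22, SE 0.14, adjusted p = 0.00096). The nuclear receptor gene Nr4a1 held 62.1, 53.7 and 54.8 CPM in home-cage mice and 136 and 123 CPM in trained mice. It rose 2.28-fold (log2 1.19, SE 0.10, adjusted p = 8.5e-05), and its trained libraries differed from each other far less than from the home-cage libraries. Egr4, a factor of mainly neural expression, held 33.4, 29.4 and 36.2 CPM in WT VEH_HC and 75.8 and 57.2 CPM in WT VEH, a 2.02-fold rise (log2 1.01, SE 0.11, adjusted p = 0.00079). Nr4a2, which midbrain dopamine neurons need for their development, held 47.5, 47.5 and 43.7 CPM in home-cage mice and 77.1 and 59.1 CPM in trained mice. Its 1.47-fold rise was the smallest of the 5 (log2 0.56, SE 0.13, adjusted p = 0.026). All edgeR values were adjusted over the 16820 genes.

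The other two members did not pass the test. Egr3, a paralog that active neurons can also induce, held 58.8, 55.5 and 54.9 CPM in WT VEH_HC and 54.9 and 49.5 CPM in WT VEH. Its log2 fold change was -0.11 (95% interval -0.26 to 0.04, edgeR adjusted p = 0.31). Nr4a3 held 135, 137 and 117 CPM in home-cage mice and 142 and 129 CPM in trained mice, with overlapping libraries and a log2 fold change of 0.06 (-0.13 to 0.25, edgeR adjusted p = 0.68). In the fit reported, without adjustment for choroid plexus markers, both intervals exclude changes as large as the estimates for Egr1, Egr2, Egr4, Nr4a1 and Nr4a2.

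**Figure D2:**
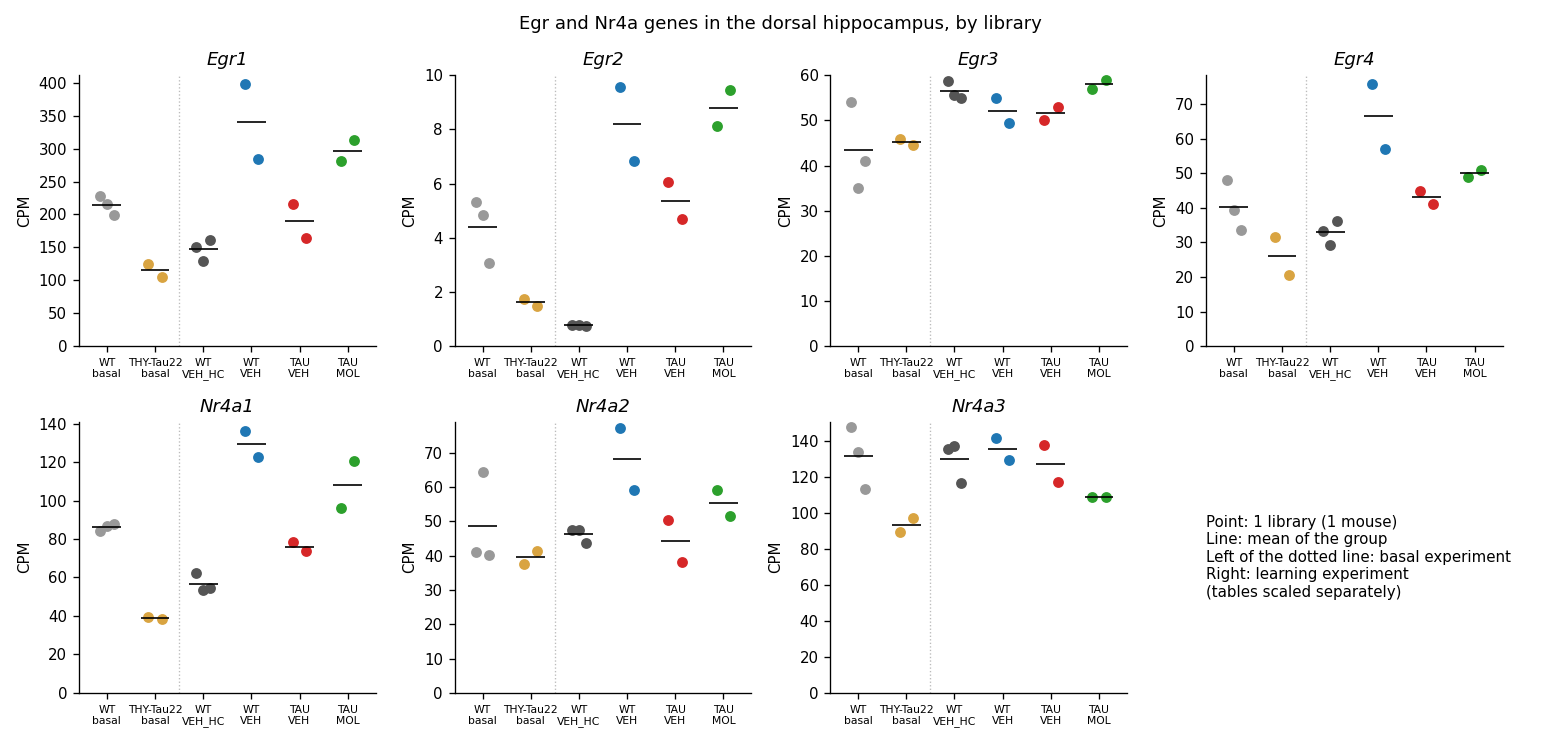
CPM (linear axis from 0) of each gene in each library, with bars for the group means and the basal experiment left of the dotted line, whose values were scaled separately. In the WT VEH group Egr1, Egr2, Egr4, Nr4a1 and Nr4a2 lie above every WT VEH_HC library, as 23% of all genes do, while Egr3 and Nr4a3 stay near their home-cage levels.

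All 10 choroid plexus markers were also called higher in WT VEH than in WT VEH_HC, with a median log2 fold change of 3.57. With the mean choroid plexus marker level of each library as a covariate, edgeR called 0 genes, members or others, and 843 of 16820 had an unadjusted p under 0.05. The log2 fold change was then 3.27 for Egr2 (SE 0.79, adjusted p = 0.93), 1.31 for Nr4a1, 0.60 for Egr1, 0.28 for Egr4 and 0.70 for Nr4a2. For Nr4a3 it rose to 0.58, above Egr4 and near Egr1. Egr3 stayed between -0.19 and -0.04 in all alternative fits. The covariate and training cannot be told apart in this comparison, since the ranges of the marker sum in the 2 groups do not overlap. None of the 5 markers of hippocampal neurons was called (median log2 fold change -0.01). Without WT VEH replicate 1, which held the higher value of each of the 5 genes in its group, 4 remained called and Nr4a2 did not (log2 0.35, adjusted p = 0.30), while the number of all genes called fell from 1413 to 73. Leaving out any other library kept all 5 called, beside 282 of all genes without WT VEH replicate 2, 614, 952 and 2798 without WT VEH_HC replicates 1, 2 and 3 and 793 to 810 without a TAU VEH or TAU MOL library.

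Trained THY-Tau22 mice were also set against the same home-cage WT libraries, a comparison in which genotype, carrier and training change together. In TAU VEH against WT VEH_HC, Egr2, Nr4a1 and Egr4 were called higher and no member lower, beside 16.2% of all genes called higher and 34.4% in either direction. Egr2 held 6.06 and 4.68 CPM in TAU VEH and rose 7.10-fold over WT VEH_HC (log2 2.83, SE 0.20, edgeR adjusted p = 8.3e-05), the 7th highest of all genes. Nr4a1 stood 1.34-fold higher (log2 0.42, SE 0.10, edgeR adjusted p = 0.0070) and Egr4 1.31-fold higher (log2 0.39, SE 0.12, edgeR adjusted p = 0.023). Egr1, at 215 and 164 CPM, lay above all 3 home-cage libraries but missed the threshold (log2 0.37, SE 0.14, edgeR adjusted p = 0.066). Nr4a2 gave -0.06 and Nr4a3 -0.02, each with overlapping libraries, and Egr3 gave -0.13. The direction of these 3 differences depended on the scaling, since with library size alone they became 0.11, 0.14 and 0.04. Without TAU VEH replicate 1, Egr2 alone was called and Nr4a1 (0.37, adjusted p = 0.075) and Egr4 (0.32, adjusted p = 0.18) were not, with 3273 of all genes called in place of 5782. Without TAU VEH replicate 2, Egr1 was called (0.55, adjusted p = 0.035) and Egr4 was not (0.45, adjusted p = 0.053), with 3766 of all genes called, and Egr1 was also called without either WT VEH library (adjusted p = 0.038 without replicate 1 and 0.040 without replicate 2), which enter through the shared spread. Without TAU VEH replicate 1, in turn, the estimate of Egr1 fell to 0.16, the lowest of its alternative fits. The GC and length correction raised the estimate of Egr4 to 0.92 (adjusted p = 0.0017), and gave 0.69 for Nr4a1, 0.52 for Egr1 and 2.98 for Egr2. Of the 10 choroid plexus markers 4 were called higher, and all 10 in TAU MOL against WT VEH_HC. The hippocampal neuron markers summed to 14936 to 17663 CPM in WT VEH_HC and to 11315 to 12330 CPM in TAU MOL, with 4 of 5 called lower in TAU VEH and 3 of 5 in TAU MOL. The CA1 markers summed to 547 to 787 CPM in WT VEH_HC and to 422 to 441.3 CPM in TAU VEH, with 3 of 5 called lower in TAU VEH and 1 of 5 in TAU MOL. The part of these markers in the values of the Egr and Nr4a genes was not tested.

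In TAU MOL against WT VEH_HC, 4 members were called higher and 1 lower, beside 14% of all genes called higher, 14.9% lower and 28.9% in either direction. Egr2 held 8.12 and 9.45 CPM in TAU MOL, 11.5-fold above WT VEH_HC (log2 3.52, SE 0.19, edgeR adjusted p = 5.4e-06), and no other of the 16820 genes had a higher fold change. Egr1 rose 2.02-fold (log2 1.02, edgeR adjusted p = 0.00093), Nr4a1 1.90-fold (0.93, adjusted p = 0.00049) and Egr4 1.52-fold (0.60, adjusted p = 0.0031). Nr4a3, at 109 CPM in both TAU MOL libraries, was below all 3 WT VEH_HC libraries and fell by 0.25 on the log2 scale (SE 0.09, edgeR adjusted p = 0.049), a call at the edge of the threshold. It was lost without either WT VEH library (adjusted p = 0.074 and 0.064), either TAU MOL library (0.19 and 0.18, with 2319 and 2405 of all genes called in place of 4864), WT VEH_HC replicate 1 (0.11) or WT VEH_HC replicate 2 (0.097). Nr4a2 gave 0.26 (adjusted p = 0.15) and Egr3 0.04 (adjusted p = 0.71). The GC and length correction gave 1.0 for Egr4 in this comparison (adjusted p = 0.0014), called Egr3 higher (0.32, adjusted p = 0.032) and left Nr4a3 at -0.27 (adjusted p = 0.053). With the choroid plexus covariate, Egr2 was the only member still called in TAU VEH against WT VEH_HC (2.78, adjusted p = 0.0011) and in TAU MOL against WT VEH_HC (3.42, adjusted p = 0.049). Of all 16820 genes 2493 were then still called in the former (5782 without the covariate) and 51 in the latter (4864 without it).

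The trained groups were then compared with each other. In TAU VEH against WT VEH, the same 5 genes that were called higher in trained than in home-cage WT mice were called lower, and none higher, with 10.8% of all genes called lower and 14.4% in either direction. The comparisons share the WT VEH libraries, so a high or low value there enters both with opposite sign. The 7 genes had a median log2 fold change of -0.62, against 0.00406 for all genes. Egr1 held 215 and 164 CPM in TAU VEH, below both WT VEH libraries (398 and 285), and fell by 0.84 on the log2 scale (SE 0.16, 1.80-fold lower, edgeR adjusted p = 0.0047). Nr4a1 held 78.4 and 73.7 CPM against 136 and 123 CPM, a fall by 0.77 (SE 0.11, 1.70-fold, edgeR adjusted p = 0.0014). Nr4a1 had the lowest adjusted p of the 7 genes in this comparison.

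Egr4 held 45.0 and 41.1 CPM in TAU VEH against 75.8 and 57.2 CPM in WT VEH (log2 -0.62, SE 0.13, edgeR adjusted p = 0.0068). Nr4a2 held 50.4 and 38.1 CPM against 77.1 and 59.1 CPM (log2 -0.62, SE 0.14, adjusted p = 0.013). Egr2 held 6.06 and 4.68 CPM against 9.57 and 6.83 CPM (log2 -0.60, SE 0.18, adjusted p = 0.045), with the nearest libraries of the groups close together. For these 5 genes both TAU VEH libraries lay below both WT VEH libraries, which was so for 29.4% of all genes. The libraries of Egr3, at 50.2 and 53.0 CPM against 54.9 and 49.5 CPM, overlapped, as did those of Nr4a3, at 138 and 117 CPM against 142 and 129 CPM. Their log2 fold changes of -0.02 (95% interval -0.18 to 0.15) and -0.09 (-0.30 to 0.12) changed sign with library size alone, to 0.13 and 0.06.

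**Figure D3:**
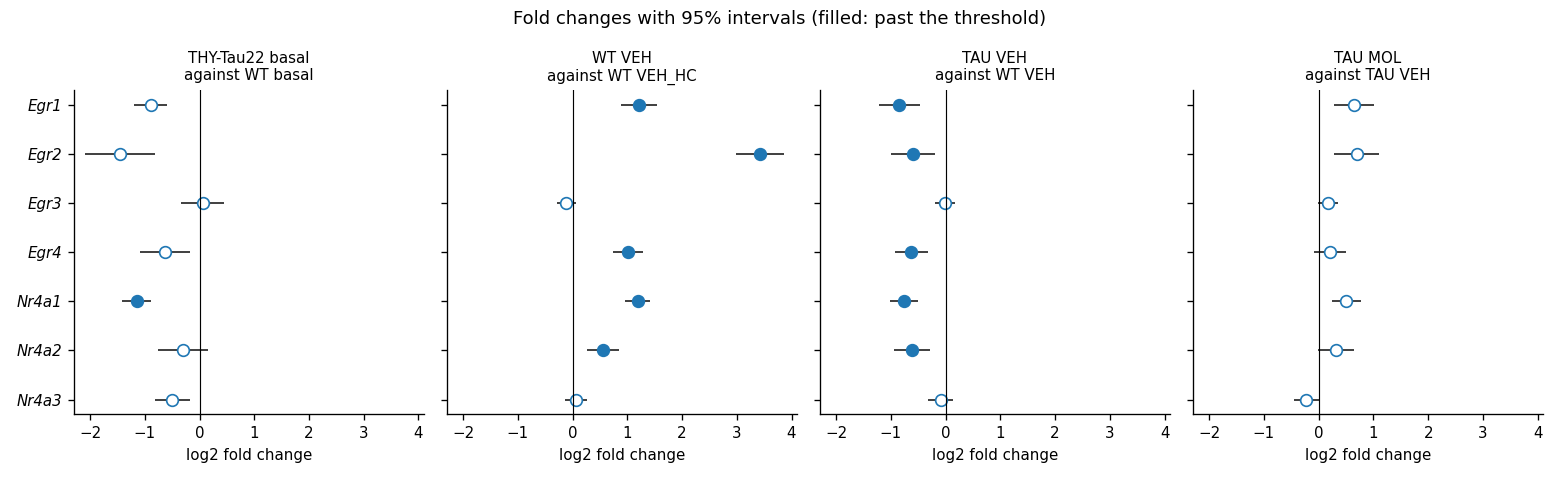
Log2 fold change of each gene (points) with its 95% interval (bars) in 4 comparisons, filled where the gene was called by edgeR. Egr1, Egr2, Egr4, Nr4a1 and Nr4a2 lie right of 0 in WT VEH against WT VEH_HC and the same genes left of 0 in TAU VEH against WT VEH, which share the WT VEH libraries, while the signs of Egr3 and Nr4a3 in the latter depend on the scaling.

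The choroid plexus markers moved in this comparison too, with 10 of 10 called lower (median log2 fold change -2.80). Of the 5 markers of hippocampal neurons 4 were called lower, their summed level being 11643 to 12066 CPM in TAU VEH and 16412 to 16490 CPM in WT VEH, and of the 5 CA1 markers 3 were called lower (median -0.67). In bulk tissue, fewer cells of a type and less RNA per cell cannot be told apart, and genotype and these marker levels cannot be told apart with 2 libraries a group. With the choroid plexus covariate edgeR called 0 genes, members or others, with 2328 at an unadjusted p under 0.05. The log2 fold change was then -0.85 for Nr4a1 (adjusted p = 0.30), -0.71 for Nr4a2, -0.49 for Egr2, -0.42 for Egr1 and -0.12 for Egr4. For Nr4a3, called in neither fit, it was -0.44, and for Egr3 it was 0.0053.

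Exon GC content spans 48.24% in Nr4a3 to 68.38% in Egr4, and the libraries of these groups differ in their relation to it. Once each library was adjusted for the GC content and length of its genes, Egr1 (log2 -0.74, edgeR adjusted p = 0.043), Nr4a1 (-0.53, adjusted p = 0.034) and Nr4a2 (-0.64, adjusted p = 0.035) remained called lower. Egr4, the most GC-rich, shrank to -0.13 (adjusted p = 0.66), and Egr2 gave -0.49 (adjusted p = 0.19). Egr3, at 62.49% GC, was called higher after the correction (0.38, adjusted p = 0.048). Of all genes 505 were called after the correction, against 2423 before it. The correction left the 5 calls of WT VEH against WT VEH_HC in place, with 3.47 for Egr2 and 1.05 for Egr4, while all genes called there fell from 1413 to 735.

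Single libraries carried weight in the difference between trained groups. Without WT VEH replicate 1, Nr4a1 alone remained called (log2 -0.68, edgeR adjusted p = 0.020), and Egr1 gave -0.58 (adjusted p = 0.062) and Egr4 -0.40 (adjusted p = 0.080). Without TAU VEH replicate 2, the shallowest library, Nr4a1 again remained alone (-0.72, adjusted p = 0.019), beside Egr1 at -0.66 (adjusted p = 0.055). All genes called fell from 2423 to 1223 without the first library and to 1232 without the second. The lowest count of all genes came without TAU VEH replicate 1, at 915, where 4 members were called, and without WT VEH replicate 2 all genes called numbered 1276 and 5 members were called. Leaving out a WT VEH_HC or TAU MOL library kept 4 or 5 members called, beside 2035 to 2944 of all genes, and Egr2 was the member lost wherever 4 were called. The split of all genes depended on the scaling, with 608 called higher and 1815 lower under TMM and 2578 higher and 1020 lower with library size alone. Under library size alone Egr1, Egr4, Nr4a1 and Nr4a2 were still called lower.

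**Figure D4:**
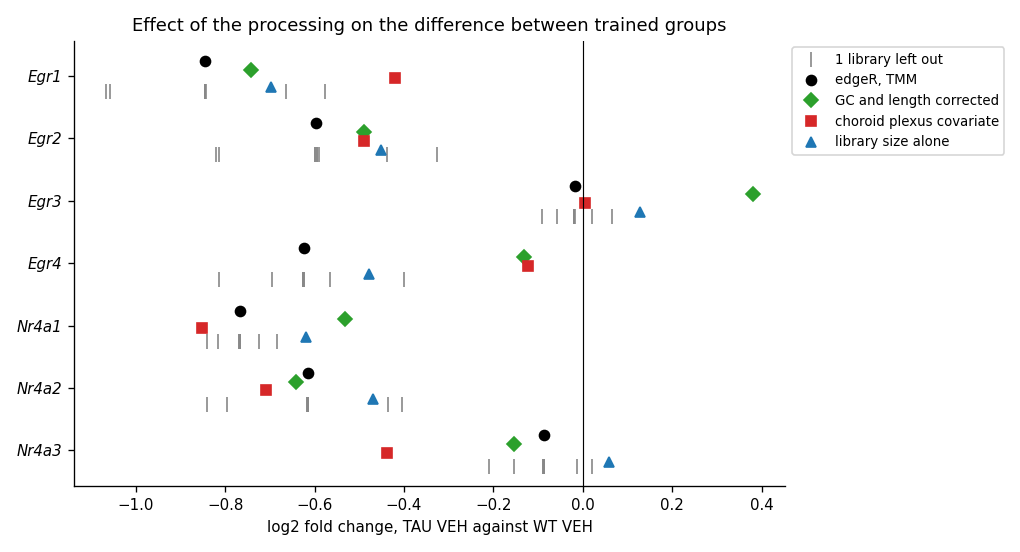
Log2 fold change of TAU VEH against WT VEH for each gene under the TMM fit (circles), with GC and length correction (diamonds), with the choroid plexus covariate (squares), with library size alone (triangles) and with 1 library left out (ticks). Egr4 moves from -0.62 to -0.13 with the GC correction and to -0.12 with the covariate, Nr4a1 stays between -0.85 and -0.53, and Egr3 crosses 0.

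The effect of CSP-TTK21 was addressed by TAU MOL against TAU VEH, both trained THY-Tau22 groups that received the carrier. edgeR called 0 of the 7 genes and 0% of all 16820 genes, of which 1064 had an unadjusted p under 0.05, including 6 members. DESeq2 1.42.0, a later version of the authors' tool, was run after the filter on low counts. It called 0.333% of all genes (56) and 1 member, Nr4a1. The paper, with its older version, reports more genes for this comparison, Egr1 among them. The 7 genes had a median log2 fold change of 0.31, against 0.00892 for all genes, and in all 7 the libraries of the groups did not overlap, 6 higher and 1 lower, which was so for 38.9% of all genes.

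Nr4a1 held 95.9 and 121 CPM in TAU MOL and 78.4 and 73.7 CPM in TAU VEH (log2 0.51, 95% interval 0.27 to 0.75, edgeR adjusted p = 0.25, DESeq2 adjusted p = 0.0038). Egr1 held 281 and 313 CPM against 215 and 164 CPM (log2 0.64, 0.30 to 0.99, edgeR adjusted p = 0.35). Egr2 held 8.12 and 9.45 CPM against 6.06 and 4.68 CPM (log2 0.69, 0.30 to 1.08, edgeR adjusted p = 0.35). In these 3 genes both TAU MOL libraries lay above both TAU VEH libraries, but none passed the adjusted threshold in edgeR. The estimates were 0.31 for Nr4a2 (59.0 and 51.5 CPM against 50.4 and 38.1), 0.21 for Egr4 (49.1 and 50.9 against 45.0 and 41.1) and 0.17 for Egr3 (57.0 and 58.9 against 50.2 and 53.0). Nr4a3 gave the single negative estimate, -0.23 (109 and 109 CPM against 138 and 117). Over the alternative fits, those with a library left out among them, Nr4a2 ran from 0.13 to 0.54 and Nr4a3 from -0.34 to -0.05. The log2 fold changes of the 10 choroid plexus markers were all positive in this comparison (median 1.31) though none was called. With their mean level as a covariate edgeR again called 0 of the 7 and 0 of all genes, of which 1285 had an unadjusted p under 0.05. The estimates were then 0.64 for Egr2, 0.55 for Nr4a1, 0.43 for Egr1, 0.36 for Nr4a2, 0.16 for Egr3, -0.04 for Egr4 and -0.05 for Nr4a3. The 5 CA1 markers summed to 597 to 625 CPM in TAU MOL and 422 to 441.3 CPM in TAU VEH (5 of 5 positive, median 0.33), and the 5 CA3 markers to 321 to 326 and 404 to 421 CPM (0 of 5 positive, median -0.36). None of these was called, and their part in the values of the Egr and Nr4a genes was not tested.

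In TAU MOL against WT VEH, where genotype and injected substance differ together, edgeR called 0 of the 7 genes beside 5.63% of all genes. These 947 genes fell to 4 without either WT VEH library, to 2 without either TAU MOL library, to 21 with the GC and length correction and to 2 with the choroid plexus covariate, with 0 members called in each. An unadjusted p under 0.05 was found for 3324 of the 16820 genes and for 3 members. DESeq2 called 2 of the 7, Egr4 and Nr4a3, beside 7.91% of all genes, and gave Egr2 no adjusted p. Egr4 (49.1 and 50.9 CPM against 75.8 and 57.2) gave -0.41 (95% interval -0.69 to -0.14, edgeR adjusted p = 0.082, DESeq2 adjusted p = 0.018). The GC and length correction brought Egr4 to -0.05 (adjusted p = 0.92) and Nr4a1 to -0.08 (adjusted p = 0.83), and raised Egr3 to 0.45 (adjusted p = 0.092). The covariate brought Egr4 to -0.16 (adjusted p = 0.64). Nr4a3 (109 and 109 CPM against 142 and 129) gave -0.32 (-0.53 to -0.11, edgeR adjusted p = 0.083, DESeq2 adjusted p = 0.023). For Egr1 the libraries overlapped and the estimate was -0.20 (-0.55 to 0.15), for Egr2 they overlapped and it was 0.10 (-0.28 to 0.47), and for Nr4a1 it was -0.26 (-0.50 to -0.02). Nr4a2 gave -0.30 (-0.61 to 0.0029) and Egr3 0.15 (-0.01 to 0.32). Egr4 (adjusted p = 0.030) and Nr4a3 (0.045) were called by edgeR without WT VEH_HC replicate 2, and Nr4a3 (0.043) without WT VEH_HC replicate 3, where all genes called rose to 1379 and 1171. These home-cage libraries enter through the shared spread. No member was called without WT VEH_HC replicate 1 (995 of all genes called), either TAU VEH library (641 each) or any library of the 2 groups compared. Of the 10 choroid plexus markers 6 were called lower, and of the 5 hippocampal neuron markers 2, with sums of 11315 to 12330 CPM in TAU MOL and 16412 to 16490 CPM in WT VEH. The part of the neuron markers in these values was not tested. A test that misses the threshold does not show that levels were equal, and for Egr1 the interval still holds a fall by 0.55 on the log2 scale.

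In the learning experiment the mean levels of Egr1, Egr4, Nr4a1 and Nr4a2 ran in the order WT VEH, TAU MOL, TAU VEH and WT VEH_HC, except that Nr4a2 in TAU VEH (44.2 ± 8.71 CPM, SD, n = 2) stood just below WT VEH_HC (46.2 ± 2.16, n = 3). For Egr2 TAU MOL (8.79 ± 0.938) stood above WT VEH (8.20 ± 1.94). Between neighbours in these orders, edgeR called Egr2 in WT VEH above TAU VEH and in TAU VEH above WT VEH_HC, and Egr4 and Nr4a1 in TAU VEH above WT VEH_HC. No other pair of neighbours passed the test, which includes every pair of neighbours of Egr3 (52.2 ± 3.81 CPM in WT VEH, 51.6 ± 2.01 in TAU VEH, 58.0 ± 1.33 in TAU MOL and 56.4 ± 2.09 in WT VEH_HC) and of Nr4a3 (136 ± 8.77, 127 ± 14.3, 109 ± 0.192 and 130 ± 11.2 CPM in the same order).

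The basal experiment compared genotypes in animals that had not been trained and whose labels name no injection. In THY-Tau22 basal against WT basal, Nr4a1 was called lower, 1 of the 7 genes, beside 0.0184% of all 16324 genes called lower and 0.0245% in either direction. Nr4a1 held 84.1, 86.7 and 87.9 CPM in WT basal and 39.5 and 38.2 CPM in THY-Tau22 basal, close within each group and far apart between them (log2 -1.15, SE 0.11, 2.22-fold lower, edgeR adjusted p = 0.016). DESeq2 called 3 of the 7, Nr4a1, Egr1 and Egr2, beside 0.245% of all genes. Egr1 held 228, 216 and 199 CPM against 125 and 106 CPM (log2 -0.89, SE 0.13, edgeR adjusted p = 0.095, DESeq2 adjusted p = 5.0e-08). Egr2 held 5.32, 4.83 and 3.05 CPM, from 97 to 197 reads, against 1.74 and 1.48 CPM, from 44 and 56 reads (log2 -1.45, SE 0.28, edgeR adjusted p = 0.24, DESeq2 adjusted p = 0.0048).

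The 7 genes had a median log2 fold change of -0.63, against -0.0072 for all genes, and in 5 of the 7 both THY-Tau22 libraries lay below all WT libraries, which was so for 9.49% of all genes. Egr4 held 48.1, 39.4 and 33.7 CPM against 31.6 and 20.5 CPM (log2 -0.63, SE 0.20, edgeR adjusted p = 0.90). Nr4a3 held 148, 134 and 113 CPM against 89.6 and 97.2 CPM (log2 -0.50, SE 0.13, edgeR adjusted p = 0.86). The libraries of Nr4a2 (41.1, 64.5 and 40.2 CPM against 37.5 and 41.4) and of Egr3 (54.0, 35.1 and 41.1 CPM against 45.8 and 44.5) overlapped, with log2 fold changes of -0.30 (95% interval -0.74 to 0.14) and 0.06 (-0.32 to 0.43). None of the markers of hippocampal neurons or of choroid plexus was called, although 9 of the 10 choroid plexus markers had positive estimates (median 1.11). Summed astrocyte markers were 1547 to 1662 CPM in WT basal and 1841 to 2160 in THY-Tau22 basal, and microglia markers 342 to 357 and 385 to 391. Oligodendrocyte markers were 6136 to 10060 and 5613 to 6074 CPM, and thalamus markers ran from 89.8 to 253 CPM within WT basal. None of these was called, and their part was not tested. The common coefficient of variation between libraries was 0.129 here and 0.0840 in the learning experiment. The call of Nr4a1 was lost without WT basal replicate 2 (adjusted p = 0.073) or replicate 3 (adjusted p = 0.052) and with the choroid plexus covariate (log2 -1.12, adjusted p = 0.092), with an estimate of -1.12 to -1.14 in each, and Egr1 joined it after the GC and length correction (-0.83, adjusted p = 0.0086).

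Whether the genotype difference was of another size in the trained, injected animals (TAU VEH against WT VEH) than in the resting basal animals was tested in 1 fit over all 14 libraries. edgeR called 0 of the 7 genes beside 0.129% of 17026 genes. An unadjusted p under 0.05 was found for 1325 of all genes and for 3 members. DESeq2 called 0 of the 7 beside 0.711% of all genes. The 3 members were Egr2, with a difference of 0.88 (SE 0.34, adjusted p = 0.54), Nr4a3 with 0.44 (SE 0.17, adjusted p = 0.53) and Nr4a1 with 0.41 (SE 0.15, adjusted p = 0.51). In these 3 genes the log2 fold change was more negative in the basal animals. The difference was 0.08 for Egr1 (95% interval -0.40 to 0.56) and 0.03 for Egr4 (-0.54 to 0.60). It ran the other way for Nr4a2, at -0.28 (-0.87 to 0.30), and for Egr3, at -0.04 (-0.45 to 0.36). The libraries of both experiments were scaled together in this fit. The experiments are separate cohorts that differ in training and in the injections named in the labels, and in the learning contrast the carrier goes with the genotype. The choroid plexus markers moved in opposite directions, with a median log2 fold change of 1.11 in the basal and -2.80 in the learning contrast. Cohort, training, injection and carrier cannot be told apart here, and the part of these markers was not tested.

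Genes that act with or on these families, and genes described as their targets, were counted from fixed lists. Their counts stand beside the shares of all genes called in either direction, 0.0245% in the basal comparison, 8.4% in WT VEH against WT VEH_HC, 14.4% in TAU VEH against WT VEH, 0% in TAU MOL against TAU VEH and 5.63% in TAU MOL against WT VEH. Against WT VEH_HC these shares were 34.4% for TAU VEH and 28.9% for TAU MOL. The Egr corepressors Nab1 and Nab2 were not called in THY-Tau22 basal against WT basal, WT VEH against WT VEH_HC, TAU VEH against WT VEH, TAU MOL against TAU VEH or TAU MOL against WT VEH. Nab1 was called higher in TAU VEH and in TAU MOL than in WT VEH_HC. Of the retinoid X receptors, which form dimers with Nr4a1 and Nr4a2, Rxrb (log2 -0.47, edgeR adjusted p = 0.0014) and Rxra (-0.46, adjusted p = 0.0037) were called lower in the TAU VEH group than in the WT VEH group, 2 of 3. Neither they nor Rxrg were called between trained and home-cage WT mice, and 1 of the 3, Rxrb, was lower in TAU MOL than in WT VEH. Rxra and Rxrb were also lower in TAU VEH than in WT VEH_HC, and Rxrb in TAU MOL than in WT VEH_HC.

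Of 13 upstream factors of the SRF, CREB and MEF2 families, 0 were called higher and 2 lower in WT VEH against WT VEH_HC, the SRF cofactors Elk1 (-0.34, edgeR adjusted p = 0.042) and Mkl2 (-0.24, adjusted p = 0.050). In the difference between the trained vehicle groups, 2 of 13 were called higher and 3 lower, among them Srf (-0.54, edgeR adjusted p = 0.0015) and Mef2d (-0.59, adjusted p = 0.0017), and Mef2a was higher (0.27, adjusted p = 0.020). In TAU MOL against WT VEH, 2 were called lower, and in the basal comparison and in TAU MOL against TAU VEH none was. The medians of this list lay between -0.06 and 0.07 in these 5 comparisons. Against WT VEH_HC, 4 were called higher and 4 lower in TAU VEH, and 2 higher and 3 lower in TAU MOL.

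Among 9 genes described as Egr targets, Arc, which encodes a synaptic capsid-like protein, was called higher in WT VEH than in WT VEH_HC (log2 1.47, edgeR adjusted p = 1.6e-05), and the vesicle protein gene Syn2 lower (-0.39). Of the 9, 4 were called lower in TAU VEH against WT VEH, led by the postsynaptic scaffold gene Dlg4 (-0.60), Arc (-0.68) and Syn1 (-0.49), with a list median of -0.45 against 0.00406 for all genes. Against WT VEH_HC, 6 of the 9 were called lower and 2 higher in TAU VEH (median -0.41) and 5 lower and 1 higher in TAU MOL (median -0.32), Arc being higher in both. In TAU MOL against WT VEH 3 were lower, in the basal comparison Arc alone was lower (-1.74), and in TAU MOL against TAU VEH none was called. Of 7 genes described as Nr4a targets, the chaperone gene Hspa5 (0.53, adjusted p = 0.0070) and Pdia6 (0.27, adjusted p = 0.043) were called higher in WT VEH than in WT VEH_HC. None of this list was called in TAU VEH against WT VEH, TAU MOL against TAU VEH or TAU MOL against WT VEH, nor among the 6 tested in the basal experiment. Against WT VEH_HC, 1 of the 7 was called higher in TAU VEH and 2 in TAU MOL, with none lower.

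Of 8 other activity-induced genes, 7 were called higher in WT VEH than in WT VEH_HC, with a median log2 fold change of 0.88. Arc (1.47), Fos (2.00, edgeR adjusted p = 2.3e-05) and Junb (91.9 against 45.9 CPM, adjusted p = 7.6e-05) had the lowest adjusted p. Egr2, at 3.42, rose more than any of the 8 by its estimate. Of the 8, 3 were called lower in TAU VEH against WT VEH, Arc, Junb (-0.52) and Fosb (-0.46), with a median of -0.29. Against WT VEH_HC, 7 were higher in TAU VEH (median 0.56) and all 8 in TAU MOL (0.67). None was called in TAU MOL against TAU VEH (median 0.30) or in TAU MOL against WT VEH (0.05), and Arc alone, lower, in the basal comparison (median -0.88).

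**Figure D5:**
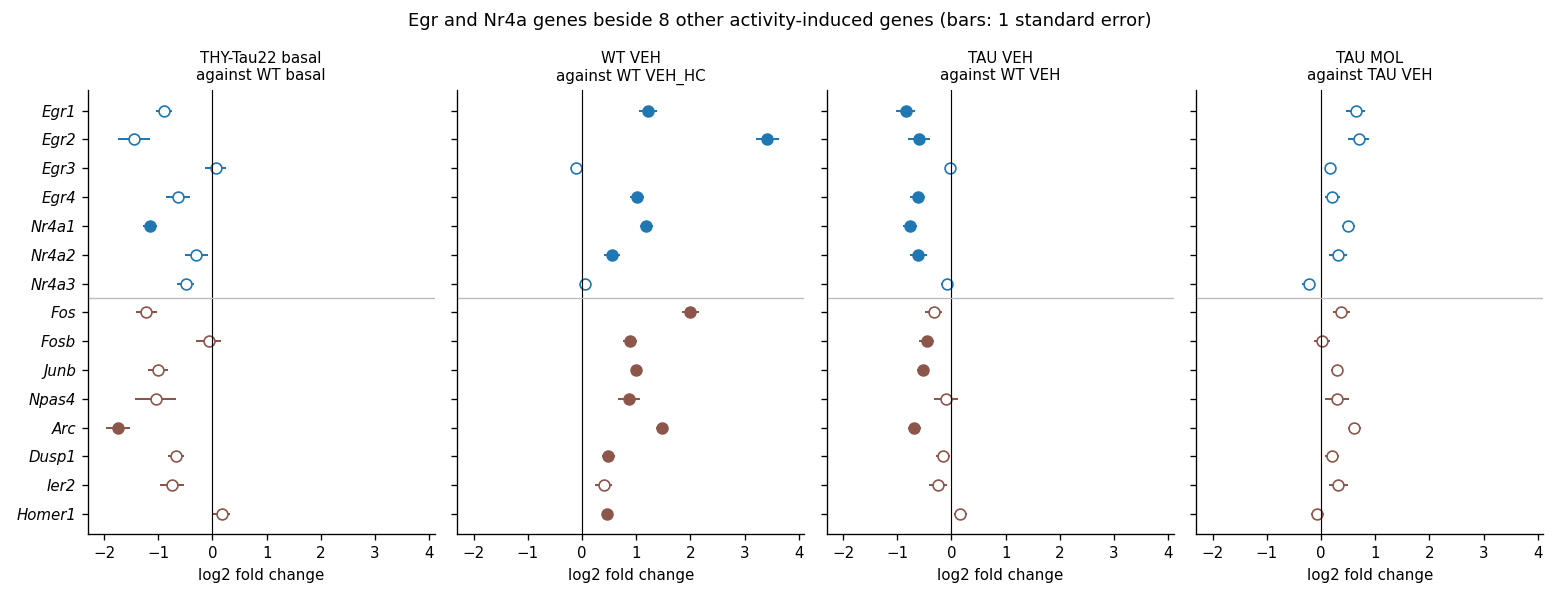
Log2 fold change (points, with bars of 1 standard error) of the 7 Egr and Nr4a genes above the line and of 8 other activity-induced genes below it in 4 comparisons, filled where called. In WT VEH against WT VEH_HC 7 of the 8 are called higher beside 5 of the 7, and in the basal comparison Arc and Nr4a1 are called, both lower.

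Genes were also ranked by how closely their pattern over the 9 learning libraries followed that of each member, as the root mean square (RMS) difference of log2 CPM after centring each gene on its mean, among the 13817 genes whose mean reached 1 CPM. Nearest to Egr1 were Gpx8 (0.134), Nr4a1 (0.147) and Steap2 (0.148). Nearest to Nr4a1 were Junb (0.123), Egr1 (0.147) and Dusp5 (0.157), and to Egr4 Steap2 (0.112), Cab39l (0.127) and Sik1 (0.132). No gene followed Egr2 closely, the nearest being Fos (0.632), 1110059M19Rik (0.654) and the choroid plexus marker Otx2 (0.741), beside an RMS of 1.54 for Egr2 around its own mean. Nr4a2 was followed by Sertad3 (0.0774), Sdf2l1 (0.109) and Fam161a (0.110). Egr3 and Nr4a3 varied little, with an RMS around their own means of 0.0849 and 0.142, so small differences there describe other genes that varied little. The nearest were Nup62 (0.0458), Fbxo7 (0.0490) and Rbm10 (0.0506) for Egr3 and 9530026P05Rik (0.0792), Traf3 (0.0841) and 8430427H17Rik (0.0876) for Nr4a3.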

How the data were processed

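The authors sequenced unstranded poly-A libraries as single 50-base reads and, per the labels and the submitters' processing notes, used CASAVA 1.8.2, TopHat2 2.0.10, Bowtie2 2.1.0, HTSeq 0.5.4p3, DESeq2 and the build mm9. The deposited tables hold raw counts per gene, used here, and the signal columns deposited beside them are the counts divided by the authors' size factors, used here only to check that relation. Columns of the authors' fold changes and p-values were not used, nor were 138 blank lines. Totals per library were 24693713 to 52180305.

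The members and all lists were chosen with earlier results of these data known. Each experiment was fitted separately in edgeR 4.0.16 (R 4.3.3; TMM, filterByExpr, glmQLFit, glmQLFTest), with all groups in 1 fit and Benjamini-Hochberg adjustment over all genes. The 16324 basal and 16820 learning genes that passed the filter were tested, and 17026 in the fit over both experiments. Calls needed an adjusted p below 0.05 and a log2 fold change of more than 0.2 in size, the authors' limits. Alternatives were DESeq2 1.42.0 (its missing adjusted p-values stayed missing), library size alone, DESeq2 size factors in edgeR, no filter, no limit on the fold change and only the groups compared. Others were each library left out, the replicate number as a block, and a correction of GC content and gene length by the loess function of R (span 0.3). A further fit took the mean log2 CPM (prior count 1) of 10 choroid plexus markers as a covariate. The steps were tested on simulated counts. All 7 members were named in each comparison, of each list at most 3 called genes with the lowest adjusted p, and for likeness the 3 nearest genes. Exon lengths and GC content came from an mm9 annotation and promoters from RefSeq on GRCm38.p6, with no conversion between the builds. The human Tau transgene was not analysed here. Not all same-numbered libraries deviated together (r from -0.16 to 0.24; 0.21 and 0.24 for WT VEH_HC and TAU MOL), so replicate numbers were not treated as pairs.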

Additional observations from a re-analysis of the deposited data

How the results depend on the processing

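With the choroid plexus covariate the count of members called was 0 in THY-Tau22 basal against WT basal (1 by the fit reported), 0 in WT VEH against WT VEH_HC (5), 0 in TAU VEH against WT VEH (5), 1 in TAU VEH against WT VEH_HC (3) and 1 in TAU MOL against WT VEH_HC (5), and it stayed at 0 in TAU MOL against TAU VEH and TAU MOL against WT VEH. All genes called numbered 1, 0, 0, 2493, 51, 0 and 2 in these 7 comparisons, in this order, against 4, 1413, 2423, 5782, 4864, 0 and 947 by the fit reported. In the basal comparison (4 of all genes called) DESeq2 called 3 members (40 of all genes), no filter 4 (125) and the GC and length correction 2 (12). In TAU MOL against TAU VEH, with 0 as reported, DESeq2 called 1 (56 of all genes), no filter 3 (233) and a fit of only the groups compared 1 (60). In TAU MOL against WT VEH, also 0 (947 of all genes), DESeq2 called 2 (1331), no filter 4 (1590) and only the groups compared 2 (1490). With 1 library left out, the count ran from 0 to 1 in the basal comparison (1 to 15 of all genes called), 4 to 5 in WT VEH against WT VEH_HC (73 to 2798), 1 to 5 in TAU VEH against WT VEH (915 to 2944), 0 to 2 in TAU MOL against WT VEH (2 to 1379), 1 to 4 in TAU VEH against WT VEH_HC (3273 to 5985) and 4 to 5 in TAU MOL against WT VEH_HC (2319 to 5269), and it was 0 throughout in TAU MOL against TAU VEH (0 to 15). A lone library left in a group was assumed to vary like the others. The causes were not tested.

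With the replicate number as a block, 4 members were called in the basal comparison in place of 1, 2 in TAU MOL against WT VEH in place of 0 and 4 in TAU VEH against WT VEH_HC in place of 3. All genes called were 37 in place of 4, 1321 in place of 947 and 6120 in place of 5782. The block left the count of members as it was in the others. All genes called there were 3000 in place of 1413 in WT VEH against WT VEH_HC and 2794 in place of 2423 in TAU VEH against WT VEH. They were 5419 in place of 4864 in TAU MOL against WT VEH_HC and 0 in both fits in TAU MOL against TAU VEH. In the comparison of the genotype differences they were 23 in place of 22. Nr4a3 in WT VEH against WT VEH_HC turned to -0.0098. The libraries share only a number.

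The sign of a log2 fold change turned in a few cases, none of them called in the fit reported but Nr4a3 in TAU MOL against WT VEH_HC (0.0946 with the choroid plexus covariate). With library size alone, which shifted the median of all genes to 0.15 in TAU VEH against WT VEH, 0.12 in TAU MOL against WT VEH, 0.15 in TAU VEH against WT VEH_HC and 0.13 in TAU MOL against WT VEH_HC, Egr3 gave 0.13 and Nr4a3 0.0596 in TAU VEH against WT VEH. In TAU VEH against WT VEH_HC it gave 0.0356 for Egr3, 0.11 for Nr4a2 and 0.14 for Nr4a3, and Egr3 was 0.0512 in the comparison of the genotype differences. The GC and length correction gave Egr3 0.38 in TAU VEH against WT VEH, 0.25 in TAU VEH against WT VEH_HC and 0.15 in the comparison of the genotype differences. The covariate gave Egr3 0.0053 in TAU VEH against WT VEH, Egr4 -0.0432 in TAU MOL against TAU VEH and -0.0086 in the comparison of the genotype differences, Egr1 0.0094 in TAU MOL against WT VEH and Nr4a3 0.14 in TAU VEH against WT VEH_HC, where only the groups compared gave 0.0070. Library size alone also moved the split of all genes called, to 1278 higher and 434 lower in WT VEH against WT VEH_HC (900 and 513 by TMM), 757 and 326 in TAU MOL against WT VEH (103 and 844), 4988 and 1530 in TAU VEH against WT VEH_HC (2724 and 3058) and 4430 and 1146 in TAU MOL against WT VEH_HC (2353 and 2511).

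Leaving out 1 library gave -0.0562 to 0.26 for Egr3, -0.96 to -0.35 for Egr4 and -0.42 to -0.02 for Nr4a2 in the basal comparison. It gave -0.0078 to 0.13 for Nr4a3 in WT VEH against WT VEH_HC. In TAU VEH against WT VEH it gave -0.0922 to 0.0655 for Egr3 and -0.21 to 0.0208 for Nr4a3, and in TAU MOL against WT VEH -0.42 to 0.0714 for Egr1 and -0.12 to 0.37 for Egr2. In TAU VEH against WT VEH_HC it gave -0.28 to 0.12 for Nr4a2 and -0.15 to 0.0842 for Nr4a3. For the comparison of the genotype differences it gave -0.14 to 0.35 for Egr1, -0.23 to 0.0807 for Egr3 and -0.26 to 0.41 for Egr4. Groups hold 2 or 3 libraries, and the lowest library of Egr2 held 31 reads. How far group size and depth each limit the precision was not tested.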
